A study of Homo sapiens with 4 samples.

Results

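The 42 genes described here encode subunits of ATP-dependent chromatin remodelers. They were listed by name from the SWI/SNF, ISWI, CHD, INO80 and related families, all 42 were found in the annotation, and they are 42 of its 20163 protein-coding genes. Nucleosomes were mapped in the established cell line BE(2)C, a human neuroblastoma line in which MYCN is amplified. Cells had received a non-targeting control siRNA (2 libraries) or an siRNA against MYCN (2 libraries, labelled N-myc kd), each at 80 nM in the labels, an amount that differs from that in the study's methods. Apart from the siRNA both groups were the same wild-type line under the same culture, and the knockdown was transient. The study's methods call the replicates biological without saying how they were separated, and p-values measure the spread between these 4 libraries.

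Chromatin remodelers use the energy of ATP to slide, evict, space or exchange nucleosomes. SWI/SNF complexes open DNA by sliding and ejecting nucleosomes, ISWI complexes space them evenly, CHD proteins act in spacing and, as part of NuRD, in repression, and INO80, SRCAP and EP400 complexes handle the histone variant H2A.Z. MYCN is a transcription factor that binds E-box DNA, and neuronal differentiation is accompanied by exchange of SWI/SNF subunits such as ACTL6A for ACTL6B. The question was how nucleosomes lay at the promoters of the genes for these machines, and whether that differed upon MYCN knockdown.

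Micrococcal nuclease (MNase) cuts DNA between nucleosomes, and each called nucleosome is given by its dyad (its centre), its read count and its fuzziness, the standard deviation in bp of the read midpoints around the dyad. Replicate 1 libraries held 147726171 (control) and 147370973 (knockdown) reads in called nucleosomes, and replicate 2 libraries held 242544884 and 239257113. Replicate 2 was thus deeper in both groups. The median nucleosome held 12 reads in replicate 1 libraries and 18 in replicate 2 libraries, and the lists held no nucleosome under 6 reads, so an absent nucleosome can be one with too few reads. MNase-seq does not measure transcripts and gave no check of the knockdown. Where 4 values are given in a row from here on, they are those of control replicate 1, control replicate 2, knockdown replicate 1 and knockdown replicate 2. The MYCN promoter held 18725, 23542, 18820 and 23646 reads (log2 change 0.05, edgeR adjusted p = 0.999). The highest count of any nucleosome was 1764 in each of the 4 libraries, although their depths differed. Whether high counts such as those at MYCN were capped was not tested.

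Stretches of 250 bp just before a transcription start site (TSS) are shown because their nucleosomes illustrate what follows. In INO80 the capitals mark the 10 bases that hold the dyad of the nucleosome before the TSS in all 4 libraries. In BPTF and CHD9 the capitals mark an E-box, CACGTG. The sequences are GRCh37 (hg19), 5′ to 3′ on the gene's strand, and hold no annotated exon.
INO80, chr15:41408479-41408728, minus strand: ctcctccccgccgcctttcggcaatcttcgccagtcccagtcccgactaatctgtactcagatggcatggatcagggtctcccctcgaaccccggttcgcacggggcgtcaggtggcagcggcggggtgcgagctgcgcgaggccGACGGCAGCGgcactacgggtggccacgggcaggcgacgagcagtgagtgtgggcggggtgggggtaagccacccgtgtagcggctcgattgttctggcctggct
BPTF, chr17:65821369-65821618, plus strand: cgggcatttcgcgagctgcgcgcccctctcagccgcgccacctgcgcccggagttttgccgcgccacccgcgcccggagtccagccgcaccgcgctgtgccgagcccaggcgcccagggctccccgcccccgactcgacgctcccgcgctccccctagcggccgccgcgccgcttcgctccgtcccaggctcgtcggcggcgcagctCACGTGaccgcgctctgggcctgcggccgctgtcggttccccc
CHD9, chr16:53088653-53088902, plus strand: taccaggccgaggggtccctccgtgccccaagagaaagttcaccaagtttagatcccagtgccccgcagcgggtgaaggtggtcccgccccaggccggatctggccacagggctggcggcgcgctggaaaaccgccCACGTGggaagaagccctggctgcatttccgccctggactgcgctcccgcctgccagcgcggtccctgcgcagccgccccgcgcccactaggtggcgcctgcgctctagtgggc

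Remodeler promoters had a deep trough at the TSS followed by a well placed nucleosome. Reads were averaged in 50-bp bins over the 42 promoters, relative to the mean from 1000 bp upstream to 1000 bp downstream. The lowest bin between 200 bp upstream and 50 bp downstream of the TSS was at 0.194 and 0.042 in the controls, and at 0.0 and 0.094 upon knockdown. Over all promoters the same minimum was 0.551, 0.535, 0.52 and 0.537. This lowest bin was lower for the remodeler genes in each of the 4 libraries. An average of 42 promoters is noisier than one of 20163, however, and its lowest bin falls lower for that reason alone. The bin was centred at 25 bp in knockdown replicate 2 and at -25 bp in the others. In knockdown replicate 2 the bins at -75 and -25 bp were at 0.54 and 0.459, against 0.568 and 0.537 over all promoters. The peak after the TSS was in the bin centred 125 bp downstream for both sets in all libraries, at 2.204, 2.376, 2.374 and 2.66 for remodeler promoters and 2.305, 2.137, 2.204 and 2.139 for all promoters.

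**Figure D1:**
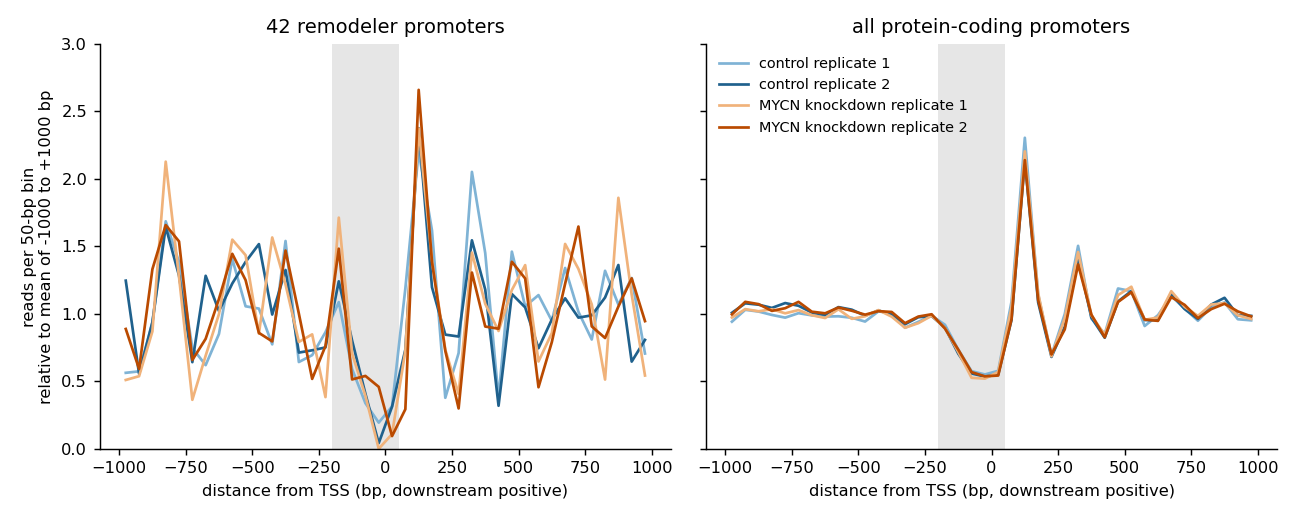
Mean reads of called nucleosomes per 50-bp bin, relative to the mean from -1000 to +1000 bp (y axis), against distance from the TSS in bp (x axis), for the 42 remodeler promoters (left) and all protein-coding promoters (right), 1 line per library, with the TSS window shaded. The lowest remodeler bin is at 0.0 to 0.194, against 0.52 to 0.551 for all promoters, and both sets peak at 125 bp. That bin is at 25 bp in knockdown replicate 2 and at -25 bp in the others.

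Reads per bp in this TSS window, relative to the flanks (2000 to 1000 bp upstream and 500 to 1000 bp downstream) and summed over the 42 genes, were 0.482 and 0.525 in the controls and 0.525 and 0.557 upon knockdown. The corresponding values over all promoters were 0.690, 0.637, 0.655 and 0.645. The upper control and the lower knockdown library were both at 0.525. With the reads thinned to 1 depth in a single random draw, the values were 0.483 and 0.448 in the controls against 0.525 and 0.521 upon knockdown. In that draw the groups stood apart, and the knockdown minus control difference went from 0.038 to 0.057. Equal-depth values over all promoters are not given here. At full depth the difference ranged from 0.016 (without control replicate 1) to 0.059 (without control replicate 2), and it was not tested. The DNA around these starts was rich in G and C, with a median of 69.3% in the 300 bp around the TSS against 63.3% over all promoters, and a median CpG ratio (observed over expected) of 0.904 against 0.773. MNase digestion and amplification depend on base composition, and the part of GC content in the depth of the trough was not tested.

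A TSS window was called filled when a nucleosome lay at least 80% inside it, and empty otherwise. It was empty in 29 of 42 remodeler promoters (69.0%) in control replicate 1, 26 (61.9%) in control replicate 2, 33 (78.6%) in knockdown replicate 1 and 23 (54.8%) in knockdown replicate 2. Over all promoters the shares were 58.4%, 52.6%, 60.3% and 52.1%. Empty windows were more frequent in the shallower replicate 1 libraries of both groups, and knockdown libraries held both the highest and the lowest count. With the reads thinned to 1 depth the counts were 29, 34, 33 and 25, and the shares over all promoters were 58.4%, 61.0%, 60.2% and 60.6%, so the low count of knockdown replicate 2 remained at equal depth.

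In all 4 libraries together, 17 of 42 windows were empty (40.5%, against 32.3% of 20079 promoters) and 5 were filled (11.9% against 19.9%). The 17 belonged to the SWI/SNF genes SMARCB1, SMARCC1, PBRM1, BRD7, BRD9, DPF1, DPF2 and DPF3, to CHD4, CHD6, CHD7, CHD8 and CHD9, to BAZ1B, to the NuRD genes MTA2 and RBBP4, and to HELLS. The 5 filled ones were SMARCD1, SMARCD3, BAZ1A, MTA1 and INO80. Empty by this rule does not mean free of reads, since a nucleosome can straddle the window's edge. SMARCB1 held 15, 25, 16 and 29 reads with dyads in the window, DPF1 23, 25, 14 and 20, and HELLS 11, 15, 13 and 21. At 50% overlap, 10 of the 42 windows were empty in all 4 libraries. No window switched with the group. Both controls were empty at 22 genes, and 0 of these windows were filled in both libraries after knockdown (5.25% of 8457 promoters were). Both controls were filled at 9 genes, and 0 of these were empty in both libraries after knockdown (7.73% of 6246 were). At those shares, few switches could be seen among so few windows. With a group judged by 1 library, counts rose to 5 filled (without knockdown replicate 1) and 4 emptied (without knockdown replicate 2), and leaving out control replicate 1 or 2 gave 1 or 2 filled and 3 or 2 emptied.

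The remaining 20 windows changed state between libraries without following the siRNA. A single library was filled for 10 genes, and for 8 of these it was a replicate 2 library. SMARCE1, a SWI/SNF core subunit, and BPTF, the large subunit of the NURF complex, were filled in both replicate 2 libraries and in neither replicate 1 library. ARID1B went the other way, filled in both replicate 1 libraries and in neither replicate 2 library. BPTF window reads were 0, 6, 0 and 11. Its window thus followed the replicate number, which goes with depth, and not the group.

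**Figure D2:**
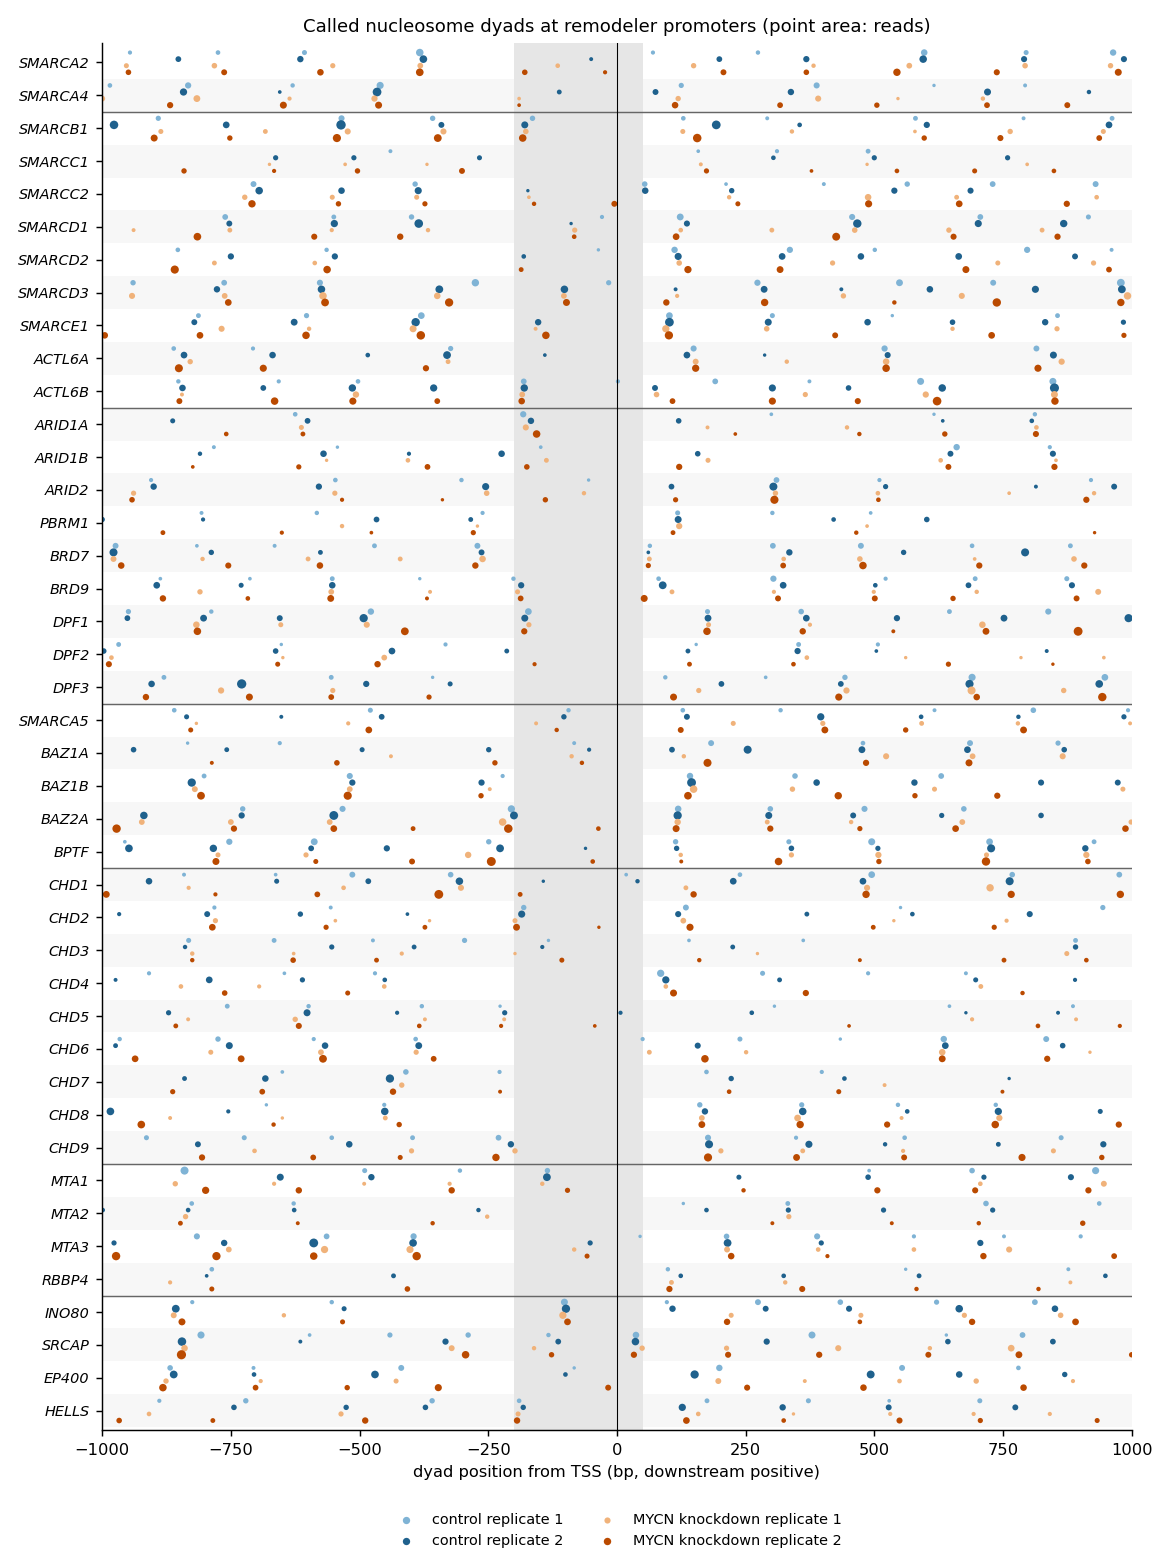
Dyads of called nucleosomes (x axis, bp from the TSS, TSS window shaded) at each of the 42 remodeler promoters (y axis), 4 libraries per gene from control replicate 1 (top) to knockdown replicate 2, point area in proportion to reads, lines between families. SMARCC1, CHD4 and CHD8 have no dyad in the window in any library, and INO80 has 1 near -100 bp in all 4.

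At 10 promoters (23.8%, against 19.1% of all promoters) no dyad fell in the window in any library: RBBP4, SMARCC1, PBRM1, BAZ1B, CHD7, MTA2, CHD4, CHD8, DPF3 and BRD7. The cleared stretch was described by the widest distance between neighbouring dyads that reaches the window. Its median over the 42 genes was 424 and 359 bp in controls and 394 and 339 bp upon knockdown, against 342, 311, 351 and 312 bp over all promoters. CHD8, an ATPase of the CHD family and a known autism gene, had a stretch of 613, 622, 615 and 588 bp, bounded by dyads at -452, -451, -450 and -423 bp from the TSS and at 161, 171, 165 and 165 bp. Both borders were held to within 30 bp over the 4 libraries. CHD4, the catalytic subunit of NuRD, had 555 and 546 bp in controls and 547 and 633 bp upon knockdown, where only knockdown replicate 2 stood apart. The widest on average was at RBBP4, a histone-binding subunit of NuRD and other complexes, with 886, 558, 974 and 509 bp. There the replicate 1 libraries were wide and the replicate 2 libraries narrower, in both groups. The RBBP4 promoter held only 53, 115, 51 and 113 reads, in 6, 11, 6 and 8 called nucleosomes. Whether nucleosomes with too few reads to be listed widened this distance was not tested.

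The highest levels in the window over the flanks belonged to ARID1A, the DNA-binding subunit of the canonical BAF form of SWI/SNF, with 3.62 and 1.77 in controls and 6.31 and 2.14 upon knockdown. Its window was mostly called empty because the nucleosome, with dyads at -182, -167, -177 and -156 bp from the TSS, straddled the window's edge. CHD3, a NuRD ATPase, followed with 2.99, 0.960, 1.79 and 1.36, and SRCAP, which deposits H2A.Z, with 1.75, 1.69, 1.78 and 1.15. In all 3 the groups overlapped. The ratios rested on small counts. Window reads were 20, 21, 19 and 29 at ARID1A, 6, 9, 6 and 13 at CHD3, and 32, 46, 25 and 35 at SRCAP. At CHD3 the replicate 1 values thus came from 6 reads, the lowest count listed for a nucleosome. SRCAP had dyads on both sides of its start, the downstream one at 37, 36, 49 and 33 bp.

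E-boxes were searched in the 250 bp before to 49 bp after each start. CACGTG, which is its own reverse complement, was at 4 of 42 remodeler promoters (9.52%, against 8.74% of 20163), and CACGCG or its reverse complement CGCGTG at 8 (19.05% against 15.13%). These are matches of letters, not measured binding sites. The CACGTG of BPTF began at -43 bp and lay inside a called nucleosome in both replicate 2 libraries and outside in both replicate 1 libraries. At CHD9 (from -114 bp), PBRM1 (from -130 bp) and RBBP4 (from -237 bp) no called nucleosome covered it in any library. Over all promoters, 43.5% of 1998 CACGTG sites were covered in no library. Of the 12 CACGCG sites, 3 were covered in all 4 libraries, at SRCAP (2 sites) and DPF1, and 3 in none, at SMARCC1, SMARCD1 and the site of SMARCA4 nearest its TSS, against 17.9% and 37.4% of 3750 such sites.

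The next comparison asked whether the first nucleosome of the gene moved. The +1 nucleosome was the one with the most reads and a dyad within 250 bp downstream of the TSS. It was present in all 4 libraries at 30 of 42 remodeler promoters (71.4% against 79.3% of all). Its median position was 124 and 122 bp in controls and 129 and 137 bp upon knockdown, against 125, 126, 126 and 127 bp over all promoters. No position passed the test (limma, Benjamini-Hochberg adjusted): 0 of 30 members and 0 of 15915 promoters (0.0%), with 3 members (10.0%) and 844 promoters (5.30%) at an unadjusted p under 0.05. The median change over the 30 genes was 0 bp, and 14 lay farther downstream and 14 nearer the TSS.

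SMARCC2, a scaffold subunit of SWI/SNF (TSS at chr12:56583267, minus strand), had the widest difference. Its +1 dyad lay 54 and 55 bp after the TSS in the controls, and 218 and 235 bp after it upon knockdown. The groups did not overlap, and the difference was 172 bp (SE 11.6, limma adjusted p = 0.143), place 45 of 15915 promoters by p. These nucleosomes held 16 and 22 reads in controls and 10 and 13 upon knockdown. Controls also held a weaker nucleosome with a dyad 212 bp (7 reads) and 223 bp (15 reads) downstream, so the farther position was shared and the nearer one was listed only in controls. Knockdown replicate 2 also held a nucleosome with its dyad at -5 bp (18 reads).

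INO80, the ATPase of the INO80 complex, kept the nucleosome before its start and differed after it. The dyad marked in the sequence above lay at -102 and -99 bp in controls and at -105 and -96 bp upon knockdown, with 25, 35, 27 and 23 reads. The +1 dyad lay 97 and 108 bp downstream in controls, and 222 and 214 bp downstream upon knockdown. The groups did not overlap, with a difference of 115.5 bp (SE 10.9, limma adjusted p = 0.206). Distances across the start were thus 199 and 207 bp in controls, close to regular nucleosome spacing, and 327 and 310 bp upon knockdown. The +1 nucleosome held 9, 21, 13 and 21 reads. The next dyad downstream lay at 274 and 289 bp in controls, and at 474 and 472 bp upon knockdown. Knockdown libraries listed no dyad between the marked one and the one at 222 or 214 bp. Whether the +1 dyads compared belong to the same nucleosome was not tested.

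CHD1, an ATPase that spaces nucleosomes in transcribed genes, went the other way, with +1 dyads at 239 and 226 bp in controls and 134 and 149 bp upon knockdown (a difference of -91 bp, SE 12.3, limma adjusted p = 0.305). The direction depends on the definition: both controls held another dyad nearer the TSS, at 18 bp (7 reads) and 40 bp (10 reads), and with the first dyad taken as +1 the change was 112.5 bp downstream. CHD6 (239, 157, 63 and 171 bp), ACTL6B (191, 74, 77 and 108 bp) and SMARCA2 (70, 199, 149 and 207 bp) were the others with the largest differences in either direction, and in these 3 the groups overlapped. Groups did not overlap, at any distance, at 5 genes with the knockdown dyads farther downstream (16.7%, against 16.6% of 15915) and 2 with them nearer (6.67% against 15.1%). With means over 50 bp apart, they did so downstream at 2 of 30 genes (6.67%, against 5.37% of 15915) and nearer the TSS at 1 (3.33% against 5.32%), shares near those of all promoters.

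Several remodeler +1 nucleosomes were at nearly the same place in all libraries. Their dyads lay within 10 bp of each other in all 4 libraries at 6 of 30 genes, MTA3, BAZ2A, CHD8, BRD7, SMARCE1 and DPF1 (20.0%, against 8.73% of promoters). The median range over the 4 libraries was 25 bp against 50 bp for all promoters. DPF1, a neuronal subunit of SWI/SNF, had its +1 dyad at 176, 177, 178 and 175 bp, and BRD7, of the PBAF form, at 64, 61, 63 and 61 bp. BAZ1B, a partner of SMARCA5 deleted in Williams syndrome, had it at 142, 145, 149 and 138 bp.

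**Figure D3:**
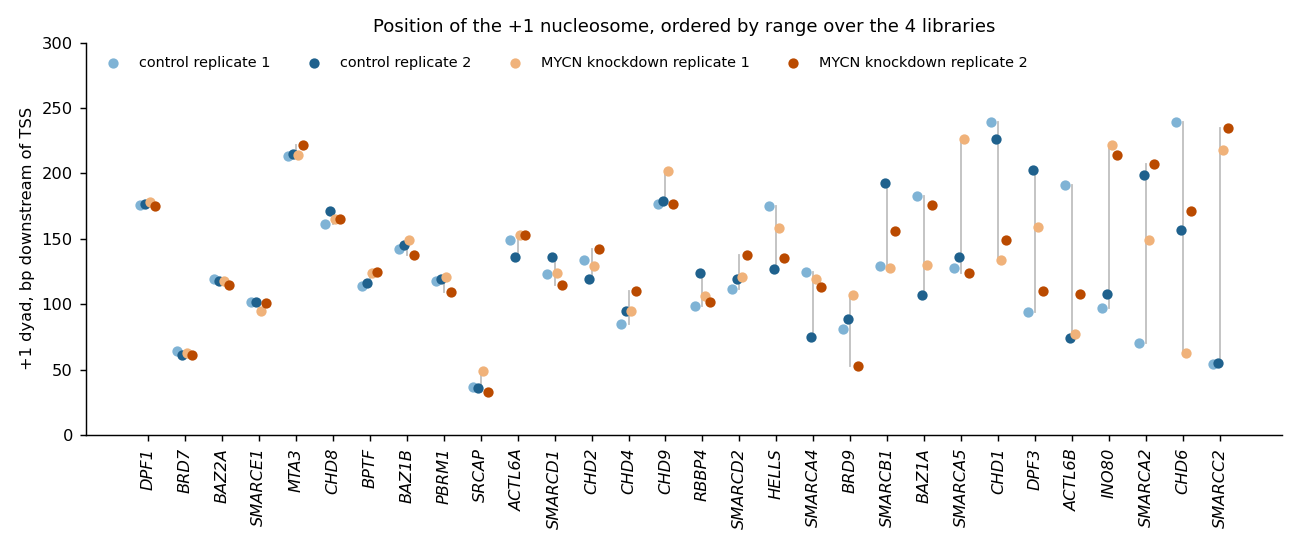
Position of the +1 dyad in bp downstream of the TSS (y axis) in each of the 4 libraries for the 30 remodeler genes with 1 in all libraries (x axis, ordered by range), with a line from the lowest to the highest value. DPF1 and BRD7 span 3 bp, while SMARCC2 and INO80, on the right, have both controls below both knockdown libraries.

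The catalytic and lineage-defining genes not yet given differed little in position between the groups, or only in 1 library. The +1 dyad of SMARCA4 (BRG1), a SWI/SNF ATPase, lay at 125, 75, 119 and 113 bp, and that of SMARCA5, the ISWI ATPase, at 128, 136, 226 and 124 bp. In each, 1 library stood apart and the groups overlapped. ACTL6A, the progenitor form of the actin-like SWI/SNF subunit, had it at 149 and 136 bp in controls and 153 bp in both knockdown libraries. BPTF had it at 114 and 116 bp in controls and 124 and 125 bp upon knockdown, a separation of under 10 bp. CHD7, mutated in CHARGE syndrome, had a +1 nucleosome in 3 libraries (174, 222 and 218 bp, and none in knockdown replicate 1). CHD5, a neuronal CHD ATPase, had 1 in control replicate 2 alone, at 7 bp.

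Promoter occupancy was the sum of reads over a region that began 2 kb before the TSS and ended 1 kb after it. No promoter passed the test (edgeR quasi-likelihood, Benjamini-Hochberg adjusted): 0 of 42 members and 0 of 20106 promoters (0.0%), with 1 member (2.38%) and 634 promoters (3.15%) at an unadjusted p under 0.05, and DESeq2 also called 0 (210 at an unadjusted p under 0.05). Of the 42 genes, 25 were higher and 17 lower, from -0.63 to 0.32 on the log2 scale, with a median of 0.02. Their median absolute log2 change was 0.08 against 0.10 over all promoters. After scaling for depth, groups did not overlap at 4 genes that were higher (9.52%, against 15.0% of promoters) and 5 lower (11.9% against 15.3%), both below the shares of all promoters.

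MTA2, a NuRD subunit (TSS at chr11:62369337, minus strand), held 149, 175, 87 and 120 reads. Both knockdown libraries were below the control of the same depth, with a log2 change of -0.63 (SE 0.21, edgeR adjusted p = 0.999). CHD4, its catalytic partner, had 157 and 230 reads in controls and 133 and 177 upon knockdown (log2 change -0.27, adjusted p = 0.999). PBRM1, the defining PBAF subunit, had 92 and 143 against 62 and 135 (-0.25), and INO80 had 198 and 330 against 160 and 275 (-0.24). The sizes leaned on single libraries: MTA2 was at -0.39 without control replicate 1, CHD4 at -0.11 without knockdown replicate 2 and PBRM1 at -0.08 without knockdown replicate 1, while INO80 stayed between -0.28 and -0.21. These 4 and MTA1 were the genes whose knockdown libraries were both below both controls after scaling.

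The largest positive values were smaller in size than the value of MTA2 and did not pass. ARID1B, the paralog of ARID1A, had 71 and 151 reads in controls and 98 and 168 upon knockdown (log2 change 0.32, SE 0.23, edgeR adjusted p = 0.999). SMARCC1 had 65 and 138 against 58 and 189 (0.27), and its same-numbered pairs went in opposite directions. CHD2, a CHD ATPase linked to epilepsy, had 106 and 216 against 124 and 242 (0.23), and DPF2 had 75 and 159 against 92 and 172 (0.22). All 3 had an edgeR adjusted p of 0.999. Without control replicate 1, ARID1B was at 0.16, SMARCC1 at 0.11, CHD2 at 0.09 and DPF2 at 0.06, and without knockdown replicate 2 SMARCC1 was at -0.34 and CHD2 at 0.08.

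**Figure D4:**
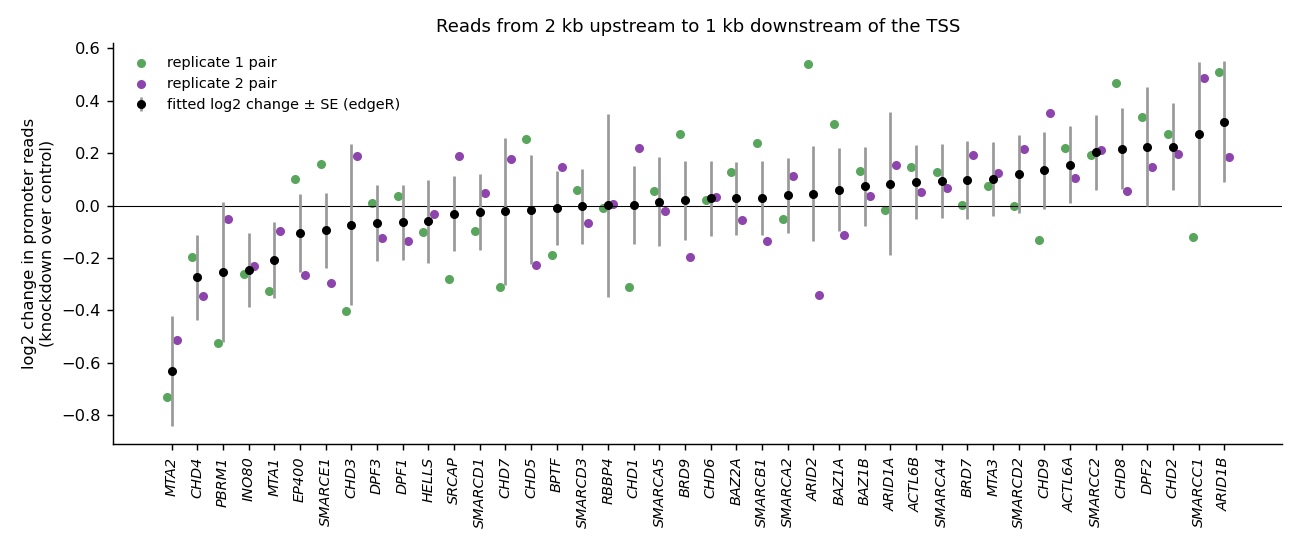
Log2 change in promoter reads, knockdown over control (y axis), for the 42 remodeler genes (x axis, ordered), with the edgeR estimate and its SE in black and the 2 same-numbered pairs of libraries in colour. Estimates run from -0.63 (MTA2) to 0.32 (ARID1B), and most SE bars cross 0.

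By family, the log2 changes spanned 0.04 to 0.09 for the 2 SWI/SNF ATPases (SMARCA2 and SMARCA4), -0.09 to 0.27 for the 9 core and shared SWI/SNF subunits and -0.25 to 0.32 for the 9 assembly-specific ones. They spanned -0.01 to 0.07 for the 5 ISWI genes, -0.27 to 0.23 for the 9 CHD ATPases, -0.63 to 0.10 for the 4 NuRD partners and -0.24 to -0.03 for INO80, SRCAP, EP400 and HELLS. The last 4 all had negative values and none passed the test, and SRCAP (-0.03, SE 0.145) and HELLS (-0.06, SE 0.159) were near 0. Same-numbered pairs went in opposite directions at SRCAP (-0.28 and 0.19) and EP400 (0.10 and -0.26), and were both negative at INO80 and HELLS. The 2 SWI/SNF ATPases had 183 and 278 against 171 and 294 for SMARCA2 and 185 and 296 against 196 and 303 for SMARCA4. Of the subunits exchanged in neurons, ACTL6A had 149 and 249 against 168 and 262 reads, and ACTL6B had 203 and 391 against 218 and 396. SMARCA5 had 125 and 199 against 126 and 192, CHD5 had 89 and 183 against 103 and 153, CHD7 had 78 and 132 against 61 and 146, and BPTF had 233 and 332 against 198 and 359.

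Fuzziness, averaged over the nucleosomes of each promoter, told how loosely they were placed. Its median over the 42 genes was 32.2 and 35.2 bp in controls and 32.9 and 35.3 bp upon knockdown, against 33.6, 35.6, 33.6 and 35.5 bp over all promoters. The replicate 2 libraries were higher in both groups. No promoter passed the test (limma): 0 of 42 members and 0 of 19869 promoters (0.0%), with 3 members (7.14%) and 287 promoters (1.44%) at an unadjusted p under 0.05. MTA2 had 37.1 and 35.9 bp in controls and 31.2 and 30.5 bp upon knockdown (-5.60 bp, limma adjusted p = 1.0). ARID1A had 28.5 and 29.8 bp against 33.2 and 35.9 bp (5.39 bp, limma adjusted p = 1.0). In both the groups did not overlap. At DPF2 (24.9 and 30.4 against 29.6 and 35.4 bp) they did. The means were over few nucleosomes, 12, 13, 8 and 11 at MTA2 and 7, 11, 6 and 12 at ARID1A. With only nucleosomes of at least 12 reads, 28 members could be tested, and MTA2, ARID1A and DPF2 were not among them. Groups did not overlap at 5 genes with higher values (11.9%, against 10.8% of promoters) and 4 with lower values (9.52% against 11.9%).

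The amount of DNA around a gene also sets its reads, and segments of this line differ in copy number. The local read level, the reads within 500 kb of the TSS relative to the median gene, was used as a guide to it. The remodeler genes' median was 1.19 and 1.17 in controls and 1.14 and 1.16 upon knockdown. For scale, the local level at amplified MYCN was 47.8, 34.2, 48.7 and 34.8, lower in the deeper replicate 2 libraries. A cap on high counts was not tested there. The lowest means were SMARCC1 (0.601) and PBRM1 (0.642) on chromosome 3, RBBP4 (0.620), ARID1A (0.639) and CHD5 (0.684) on chromosome 1, MTA2 (0.624) on chromosome 11 and CHD3 (0.644) on chromosome 17. The highest means were ACTL6B (1.327) on chromosome 7, MTA1 (1.327) on chromosome 14, SRCAP (1.318) on chromosome 16 and SMARCB1 (1.309) on chromosome 22. BPTF on chromosome 17 (1.18) was near the remodeler genes' median. CHD5, ARID1A and RBBP4 lie on the short arm of chromosome 1, an arm often lost in neuroblastoma.

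**Figure D5:**
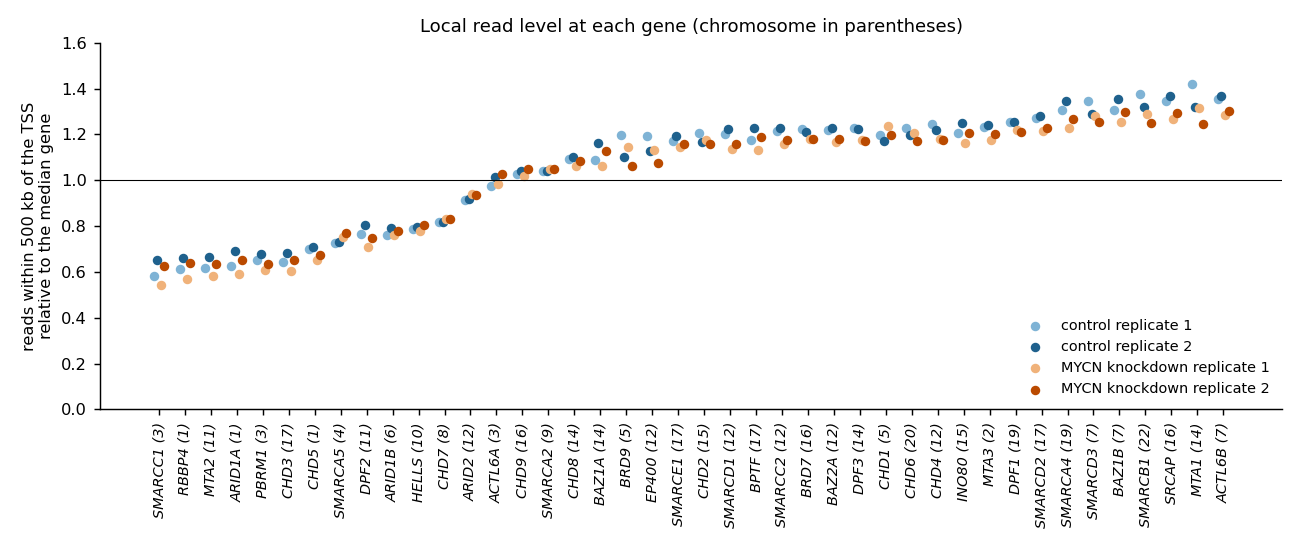
Reads within 500 kb of the TSS relative to the median gene (y axis) in each of the 4 libraries for the 42 remodeler genes (x axis, chromosome in parentheses, ordered by mean). From SMARCC1 (0.601) to CHD7 (0.824), 12 genes lie below 0.85, and the next, ARID2, is at 0.927.

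Empty windows were more frequent at genes of low local level. Of the 12 remodeler genes under a level of 0.85, a value placed in a gap after the levels were seen, 7 (58.3%) had an empty window in all 4 libraries and the median promoter held 117 reads. Of the other 30, 10 did (33.3%), with 231 reads. Over all promoters the shares were 34.9% of 7413 and 30.8% of 12666. With each promoter's reads taken relative to its own local level and the median gene, the remodeler median was 0.797, 0.820, 0.835 and 0.842, against 0.949, 0.930, 0.941 and 0.938 over all promoters, lower in each library. On the unscaled counts the medians were 155, 266, 159 and 268 reads against 163, 263, 159 and 260, with no such gap. The part of local level in the empty windows was not tested.

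A further 53 remodeler genes (partners such as RUVBL1, MBD3, HDAC1 and the ATPase ATRX) were examined in the same way, by counts. Of their promoters 27 were higher and 26 lower, from -0.32 to 0.34 on the log2 scale, and 0 passed the edgeR test or had an unadjusted p under 0.05. Of 43 with a +1 nucleosome in all libraries, 0 passed and 3 had an unadjusted limma p under 0.05 (EPC2, BCL7B and BCL7C). Over all promoters 3.15% had such a p in the edgeR test and 5.30% in the limma test of position. The TSS window was empty in all 4 libraries at 25 of the 53 (47.2%, against 32.3% of all promoters). It was filled in all 4 at 8 (19.9% of all promoters were), and 0 switched with the group. Over all promoters, 5.25% of windows empty in both controls filled and 7.73% of those filled in both emptied. How many of the 53 windows could have switched is not given here.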

How the data were processed

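MNase-seq was done on 2 control and 2 MYCN knockdown libraries of BE(2)C cells, grouped by their sample titles. The submitters' processing notes name CASAVA 1.9, Trim Galore 0.4.4, Bowtie2 2.2.4 and hg19. Per the study's methods, the authors kept proper pairs, removed duplicates, and called nucleosomes with Genetrack. They pooled replicates for their later steps, whereas the deposited lists of 147-bp nucleosomes are 1 per library. The counts the authors deposited are whole numbers of read midpoints for each nucleosome (taken as unscaled, although the methods speak of a normalised value), and the deposited fuzziness is their SD in bp. Totals are reads in called nucleosomes, not library depth.

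The TSS was that of the canonical GENCODE v44lift37 transcript. Counts were summed over the 2000 bp before and 1000 bp after the TSS and tested with edgeR 4.0.16 (quasi-likelihood, TMM) in R 4.3.3, for a mean of at least 10 reads. Dyad positions and fuzziness were tested with limma 3.58.1, fuzziness where each library had at least 5 nucleosomes. P-values were Benjamini-Hochberg adjusted over all promoters and called under 0.05. TSS windows were counted without a test, for the 20079 promoters with reads within 1000 bp in all libraries. The edgeR test of promoter reads and the limma test of fuzziness were checked on simulated data, with changes larger than any found here. The check does not bear on smaller differences, and +1 positions were not simulated. Alternatives were DESeq2 1.42.0, other filters, windows, starts and overlaps, a GC offset, a replicate block, equal depth and each library left out.

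All members are accounted for. Values per library were given for the 4 largest rises and 4 largest falls in promoter reads, the largest changes of the +1 dyad, the lowest and highest window levels, and SMARCA2, SMARCA4, SMARCA5, CHD4, CHD5, CHD7, INO80, ACTL6A, ACTL6B and BPTF. CHD8, RBBP4, DPF1, BRD7, BAZ1B, SMARCE1 and the genes named for fuzziness or local level were named after their values were seen. The members and lists were chosen with earlier results of these data known.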

Additional observations from a re-analysis of the deposited data

How the results depend on the processing

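Of 296 values recomputed for 33 results, 18 moved beyond the spread between replicates or by over 1.5 times in a count, and 9 changed sign in a named gene. Among the other 269 are sizes that moved, and a median whose sign turned within that spread: the members' fuzziness change (0.377 bp) was -0.343 bp for nucleosomes of at least 12 reads and between -1.26 and 2.201 bp with a library left out, negative without control replicate 1 or knockdown replicate 2. Leaving out knockdown replicate 2 gave 1 called promoter (range over left-out libraries 0 to 1) and turned SMARCC1 to -0.34 on the log2 scale (range -0.34 to 0.65). With a library left out, log2 changes ran from -0.86 to -0.39 for MTA2, -0.41 to -0.11 for CHD4, -0.49 to -0.08 for PBRM1, 0.16 to 0.54 for ARID1B, 0.08 to 0.41 for CHD2 and 0.06 to 0.44 for DPF2. Reads within 1000 bp either side of the TSS gave -0.50 for CHD4, -0.47 for PBRM1, 0.10 for ARID1B, 0.02 for CHD2 and 0.07 for DPF2, and the most upstream TSS gave -0.13 for CHD4, 0.17 for ARID1B, 0.05 for SMARCC1 and 0.10 for CHD2. No remodeler gene passed the promoter, +1 or fuzziness test under any alternative run. The +1 median of members was 8.5 bp with the first dyad, -14 bp with the most upstream TSS and between -1.5 and 5 bp with a library left out. CHD1 turned to 112.5 bp and CHD6 to 13.5 bp with the first dyad and with a limit of 200 bp. That limit left 23 members to test. SMARCC2 and INO80 were not among them, since their knockdown dyads lay beyond 200 bp. SMARCC2 also had no value with the most upstream TSS. ACTL6B turned to 54.5 bp with the first dyad and 18.5 bp without control replicate 1 (range -98.5 to 18.5 bp). SMARCA2 turned to -175.5 bp with the most upstream TSS and -21 bp without control replicate 1 (range -21 to 108.0 bp). Fuzziness called 0 to 3 promoters with a library left out (2 without control replicate 2, 3 without knockdown replicate 2), and the change at DPF2 ran from 2.01 to 7.81 bp. Windows empty in all libraries numbered 10 at 50% overlap. The most upstream TSS gave 1 window emptied upon knockdown, and with a library left out filled windows ranged from 0 to 5 and emptied ones from 0 to 4. Within 100 kb, the median local level was 1.129 (BPTF 1.137, CHD5 0.714). The cause of these changes was not tested.

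With the replicate block, 0 promoters (1175 at an unadjusted p under 0.05), 0 +1 positions (788) and 1 fuzziness value (1128) passed, none of them of a remodeler gene. With the block and a GC offset 0 promoters passed (1069). Libraries with the same number deviated together (r = 0.294 across 20106 promoters, which are not independent), but the number also goes with depth. The size of difference that 2 libraries per group could have shown was not determined.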
